A study of Rattus norvegicus with 24 samples.

Results

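The 40 genes described here are Slc6a4, which encodes the serotonin transporter, and the 39 genes of the dorsal raphe whose levels followed it most closely from library to library. They were chosen from poly-A RNA sequencing of 2 brain regions in 2 rat lines. A gene counted as a raphe gene when its pooled level over the 12 dorsal raphe libraries was at least 4 CPM (a gene's count scaled to library totals of equal size) and at least 8 times the pooled amygdala level after 0.1 CPM was added to it. Of 32662 Ensembl gene IDs in the tables, 93 met this, and the rule set 1 of them aside. The remaining 92 were Slc6a4 and the genes ranked by Pearson's r with it on the log2(CPM + 1) scale over the 12 dorsal raphe libraries, of which the first 39 were taken. The region difference and the correlation chose these genes and are given as a description, with no test.

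The libraries came from high-responder (HR) and low-responder (LR) rats, lines bred for strong and weak responses to novelty, all 60 days old. There were 6 libraries for each group: HR dorsal raphe, LR dorsal raphe, HR amygdala and LR amygdala. The labels give neither the sex of the rats nor whether a library came from 1 animal or a pool, and they name no agent or altered gene for any group. Each response is represented by 1 line, so effects of the line and of the response cannot be told apart.

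The serotonin transporter carries released serotonin back into the neuron that released it, and it is the target of the selective serotonin reuptake inhibitors. In the brain it is made mainly by serotonin neurons, whose cell bodies lie in the raphe nuclei of the brainstem and whose axons reach the amygdala and much of the forebrain. These neurons are also known for making serotonin through tryptophan hydroxylase and for loading it into vesicles with the vesicular monoamine transporter. The tables give IDs without symbols, and no reference used here pairs the IDs with names. Slc6a4 is ENSRNOG00000003476, as the rule itself states. The other 39 genes are given by ID, with no role assigned to them.

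Library totals ranged from 9232983 to 20194601 counts. HR dorsal raphe library 1 stood apart in Slc6a4. Its total was 10960530 counts, and 18688 genes had at least 1 count in it, against 18614 to 19821 genes in the other 11 dorsal raphe libraries. Over 14195 genes with a mean of at least 1 CPM in the dorsal raphe, its level had a median of 101% of the median of the other 11. Over 123 genes of the amygdala, chosen by the same thresholds with the regions exchanged, the figure was 113%. The library numbers also fall into an earlier and a later run in each group, and what the runs stand for is not given.

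Slc6a4 was abundant in the dorsal raphe of both lines and nearly absent from the amygdala. In HR dorsal raphe its lowest, median and highest values were 59.0, 404 and 493 CPM, and in LR dorsal raphe they were 299, 414 and 619 CPM. In HR amygdala they were 0.0904, 0.291 and 0.647 CPM, and in LR amygdala 0.228, 0.317 and 1.49 CPM. The 5 other HR dorsal raphe libraries, from 312 to 493 CPM, lay within the LR range, and HR library 1 lay far below every other dorsal raphe library. Its 59.0 CPM rested on 647 counts, with an exact 95% Poisson interval of 54.6 to 63.8 CPM that covers counting error only. In tissue RNA, fewer cells that make a transcript and less transcript per cell cannot be told apart.

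ENSRNOG00000003880 followed Slc6a4 most closely, with r = 0.998. Its lowest, median and highest values were 103, 559.5 and 676 CPM in HR dorsal raphe, against 443, 546 and 774 CPM in LR dorsal raphe, and the lowest was again HR library 1. The ratio of its CPM to that of Slc6a4 was 1.75 in HR library 1 and between 1.25 and 1.48 in the other 11 dorsal raphe libraries. The ratio is not scaled to transcript length and serves only to compare libraries. Both genes thus kept nearly one proportion over the 11 libraries, and in HR library 1 ENSRNOG00000003880 was the less reduced of the pair.

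ENSRNOG00000011039 came next, with r = 0.984. It stood at 7.12 CPM in HR library 1, at 23.5 to 37.6 CPM in the other HR dorsal raphe libraries and at 20.5 to 45.0 CPM in the LR ones. Its ratio to Slc6a4 was 0.121 in HR library 1 and ranged from 0.0638 to 0.0764 in the other 11 libraries. Correlations of 0.960, 0.957 and 0.954 belonged to ENSRNOG00000004327, ENSRNOG00000019336 and ENSRNOG00000017856. ENSRNOG00000004327 stood at 81.2 CPM in HR library 1, against 178 to 307 CPM in the other 11 libraries. ENSRNOG00000019336 stood at 13.0 CPM there, against 22.4 to 35.6 CPM. ENSRNOG00000017856 stood at 4.20 CPM there, against 15.2 to 37.1 CPM. In each of these genes HR library 1 lay below all the other libraries, while the other HR libraries overlapped the LR ones.

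The 10 highest correlations were completed by ENSRNOG00000010053 (0.921), ENSRNOG00000026091 (0.919), ENSRNOG00000017996 (0.883), ENSRNOG00000002149 (0.862) and ENSRNOG00000008890 (0.858). ENSRNOG00000017996 had 0 counts over the 12 amygdala libraries and the deepest relative drop in HR dorsal raphe library 1. There it had 5 counts, or 0.456 CPM with an exact 95% Poisson interval of 0.148 to 1.06 CPM. The other 5 HR dorsal raphe libraries stood at 3.05 to 6.31 CPM and the LR ones at 2.99 to 6.37 CPM, all above that interval. ENSRNOG00000008890 varied widely among the other libraries too, from 89.9 to 248 CPM, and its r without HR library 1 was 0.877.

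**Figure D1:**
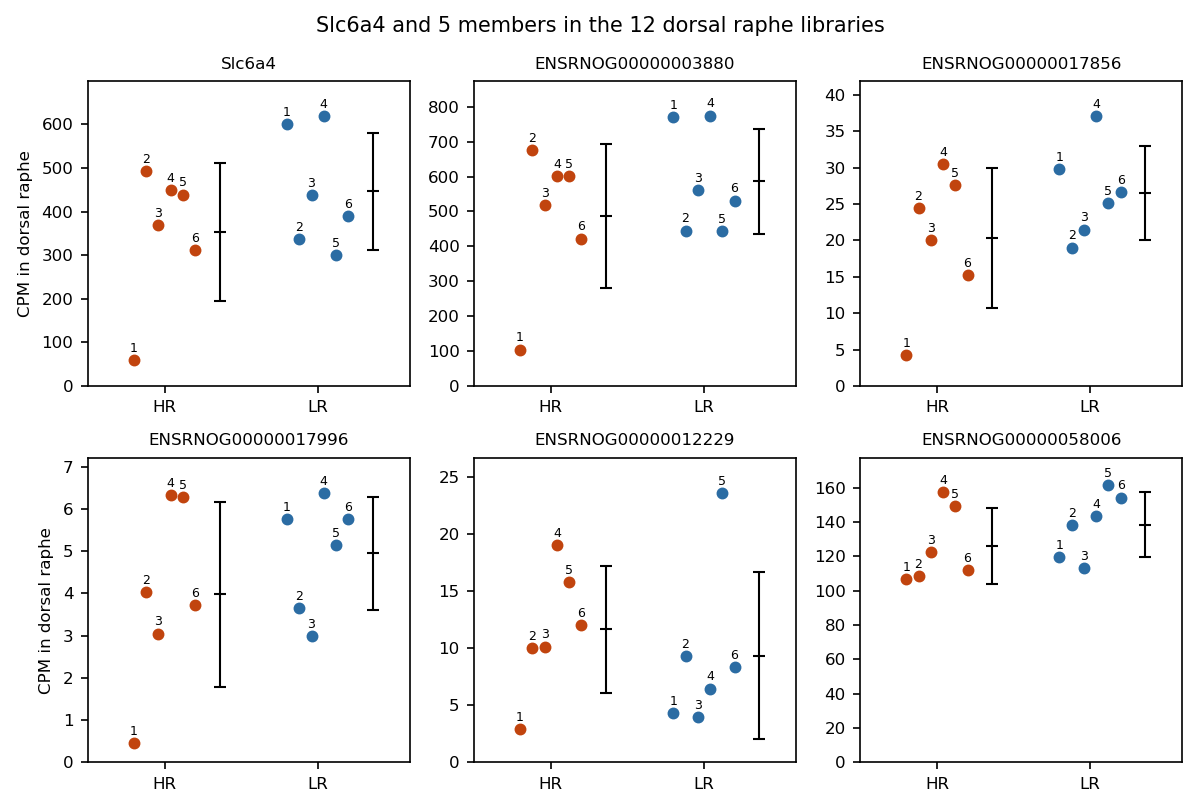
CPM (linear axis from 0) of Slc6a4 and 5 of the genes ranked with it, in HR (left) and LR (right) dorsal raphe libraries; points are libraries with their replicate numbers, and black bars are the mean and SD of 6 libraries. HR library 1 is the lowest in all 6 panels, far below the rest in ENSRNOG00000017996 and just below them in ENSRNOG00000058006.

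Pooled over the 12 dorsal raphe libraries, the 39 genes besides Slc6a4 had levels of 4.43 to 544 CPM with a median of 14.7 CPM. In each of the 40, Slc6a4 included, every dorsal raphe library lay above every amygdala library. The coefficient of variation of the 39 over the 12 dorsal raphe libraries ranged from 15.5% to 60.0% with a median of 33.8%. That median was 28.6% without HR library 1. ENSRNOG00000058006, of rank 29 and among the 5 most counted of the list, was one of the steadier genes, at 107, 117 and 157 CPM (lowest, median and highest) in HR and 113, 141 and 161 CPM in LR dorsal raphe.

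The list did not end at a gap in the correlations. The 5 lowest inside it were 0.287 (ENSRNOG00000028311), 0.279 (ENSRNOG00000002120), 0.271 (ENSRNOG00000025860), 0.262 (ENSRNOG00000028077) and 0.257 (ENSRNOG00000059519). The 5 just outside were 0.247 (ENSRNOG00000001392), 0.240 (ENSRNOG00000036585), 0.237 (ENSRNOG00000018892), 0.234 (ENSRNOG00000011918) and 0.224 (ENSRNOG00000024172). The median r of the 39 was 0.439, against 0.0140 for the 52 raphe genes left outside. Of the 39, 7 had r of at least 0.9, and 19 had r of at least 0.5 and form ranks 1 to 19. The division into ranks 1 to 19 and ranks 20 to 39 was made after the values were seen and serves as a description.

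HR library 1 was the lowest of the 12 dorsal raphe libraries for 31 of the 40 genes, for 4 of the 52 other raphe genes and for 7.96% of the 14195 genes with a mean of at least 1 CPM. The 40 genes were chosen on values that include this library, so the count describes the choice. Relative to the median of the other 11 libraries, HR library 1 stood at 8.88% for ENSRNOG00000017996, at 13.5% for Slc6a4 and at 16.7% for ENSRNOG00000017856, the deepest drops among the 40. It stood at 86.3% for ENSRNOG00000060020, 77.1% for ENSRNOG00000058006 and 75.4% for ENSRNOG00000028311, the shallowest. The median was 46.9% over the 40 genes and 93.9% over the 52 other raphe genes. The summed level of the 40 was 730.0 CPM in HR library 1 and 1848 to 2932 CPM in the other 11 libraries. The summed level of the 52 others was 1249 CPM in HR library 1, within the range of 859 to 1542 CPM of the other 11.

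**Figure D2:**
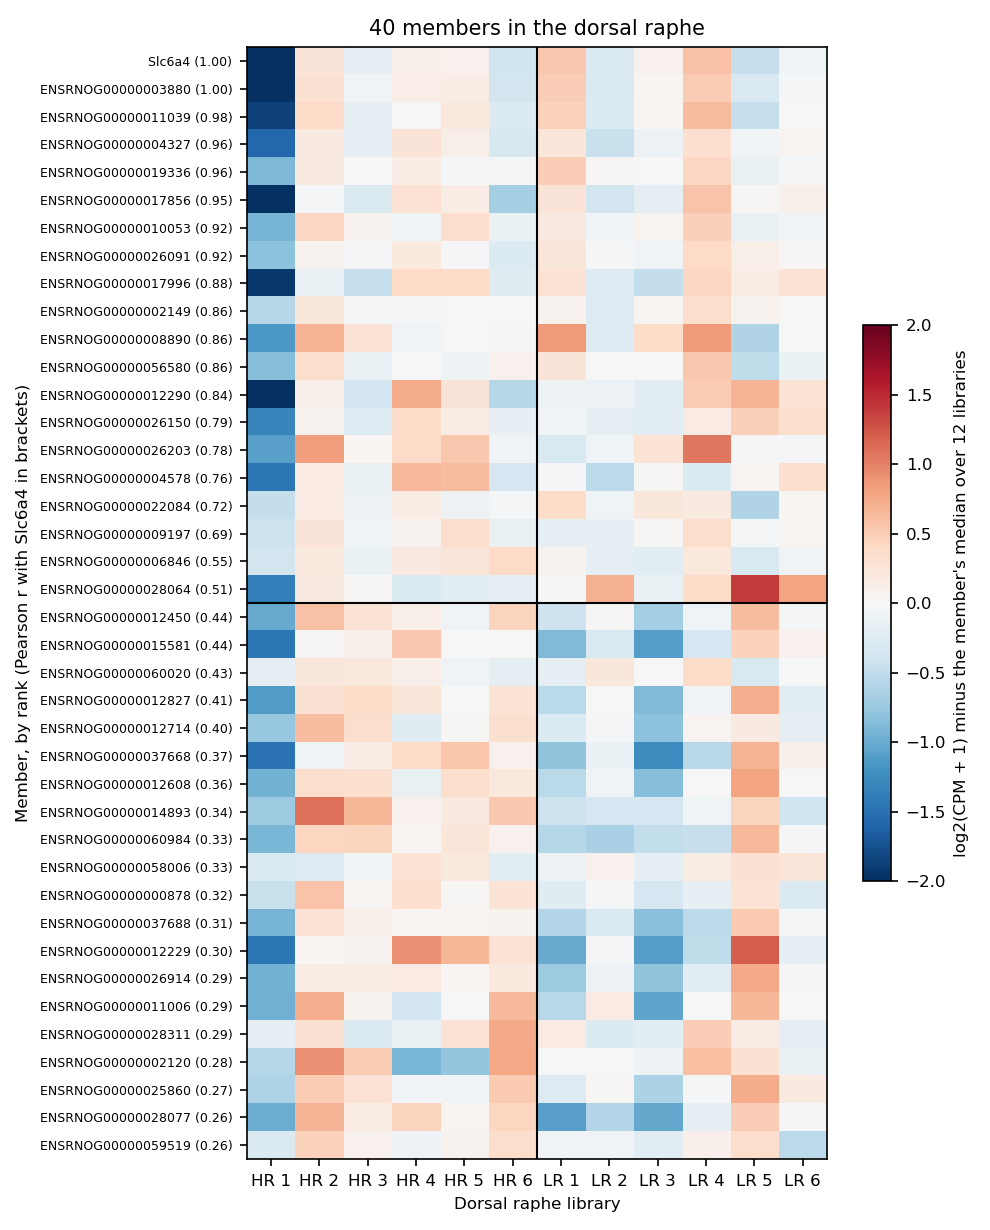
Log2(CPM + 1) of the 40 genes minus each gene's median over 12 dorsal raphe libraries (columns, HR left of LR; rows by rank with r in brackets, the line parting rank 19 from rank 20; values beyond 2 in either direction take the end colour). HR library 1 is blue in nearly every row, and below the line LR libraries 1 and 3 tend to be low and LR library 5 high.

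The correlation was recomputed without HR library 1, over 11 libraries. It fell to a median of 0.00843 over the 39 genes, with 20 positive and 19 negative values between -0.615 and 0.987. Over the 52 other raphe genes the median also fell, from 0.0140 to -0.464, so the fall was not particular to the list. At least 0.5 was reached by 12 of the 39. ENSRNOG00000003880 and ENSRNOG00000011039 stood at 0.987 and 0.969, ENSRNOG00000019336 at 0.890 and ENSRNOG00000004327 at 0.807. Among ranks 1 to 19 the value was negative for 1 gene, ENSRNOG00000028064 at -0.388, and it was low for some others, such as ENSRNOG00000012290 at 0.215. Among ranks 20 to 39 it was negative for 18 of 20 genes and at most 0.369. The name of the list, genes that track the serotonin transporter, therefore did not hold without HR library 1 for most of ranks 20 to 39. These correlations share their libraries and the partner gene, and they carry no p.

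**Figure D3:**
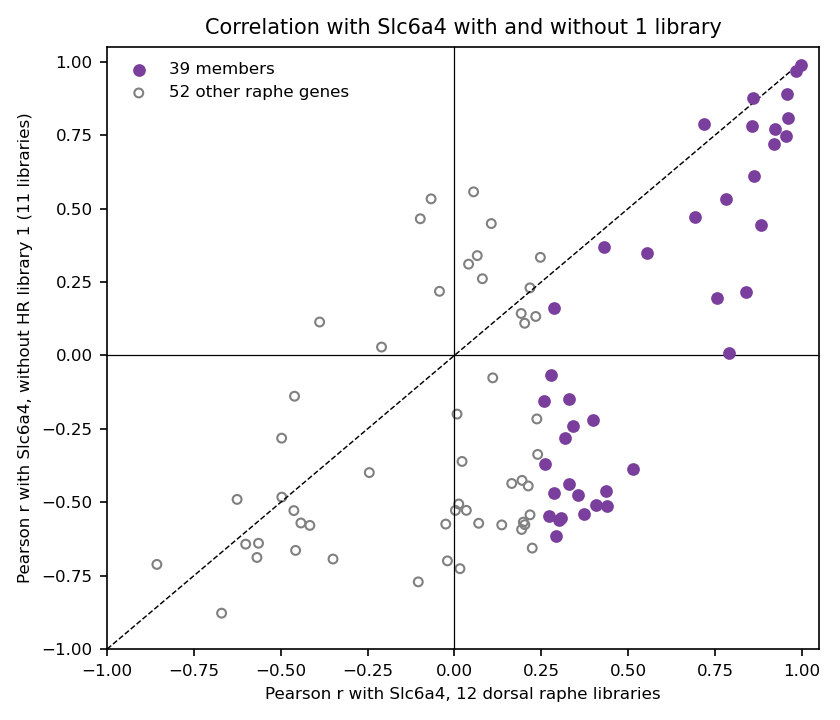
Pearson's r with Slc6a4 over 12 dorsal raphe libraries (horizontal) and over 11 without HR library 1 (vertical), for the 39 genes (filled) and the 52 other raphe genes (open), with a dashed line of equality. The genes with r of at least 0.9 stay high on both axes, while 18 of the 20 filled points with r under 0.5 lie below 0 on the vertical axis.

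Ranks 20 to 39 varied with one another more than with Slc6a4. Among their 190 pairs the median r over 12 libraries was 0.740, and it was 0.675 without HR library 1. Among the 171 pairs of ranks 1 to 19 the medians were 0.743 and 0.443. Over the 380 pairs of a gene in ranks 1 to 19 with one in ranks 20 to 39, the median was 0.370 with HR library 1 and -0.0412 without it. The summed level of ranks 20 to 39 was 226 CPM in HR library 1 and 396 to 425 CPM in the other 5 HR libraries. In the LR libraries it spread from 250.3 to 513 CPM, so the LR range enclosed the 5 HR values.

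The lines were then compared in the dorsal raphe, to ask whether these genes differ between rats bred for high and low responses. The line labels played no part in the rule, but the genes share much of their variation by choice, so their directions are not independent of one another. All 40 passed the low count filter, and 0 of them had an adjusted p under 0.05 (edgeR's quasi-likelihood test, Benjamini-Hochberg over 14390 genes). Over all genes tested 0.0625% were called, so a count of 0 among 40 is near that background. An unadjusted p under 0.05 (edgeR) was found for 1 of the 40, against 726 of the 14390 genes, and DESeq2 also called 0 of the 40. The main fit had no term for the later run of libraries. With such a term 0 of the 40 were called, and 12 of all genes. An unadjusted p under 0.05 (edgeR) was then found for 2 of the 40 and for 1229 of the 14390 genes. In 0 of the 40 genes did the 6 HR libraries lie wholly above or below the 6 LR libraries, against 0.751% of all genes tested.

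Slc6a4 averaged 353 ± 158 CPM in HR and 447 ± 134 CPM in LR dorsal raphe (SD, n = 6 each). The log2 fold change was -0.36 (SE 0.37, edgeR adjusted p = 0.999). Without HR library 1 the HR mean was 412 ± 71.5 CPM and the log2 fold change of Slc6a4 (ENSRNOG00000003476) was -0.14 (SE 0.19, edgeR adjusted p = 0.998). The difference was smaller than the spread between libraries with and without that library. ENSRNOG00000003880 averaged 487 ± 207 CPM in HR and 587 ± 151 CPM in LR dorsal raphe, and its log2 fold change was -0.29 (SE 0.34, edgeR adjusted p = 0.999). Without HR library 1 the HR mean of ENSRNOG00000003880 was 564 ± 97.1 CPM and the log2 fold change -0.08 (SE 0.17, edgeR adjusted p = 0.998). Within the earlier libraries (3 HR and 4 LR) the log2 fold change of Slc6a4 was -0.73 (SE 0.53), and within the later ones (3 HR and 2 LR) it was 0.17 (SE 0.21). Neither passed the threshold.

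The median log2 fold change of the 40 was -0.01, equal to the -0.01 of all genes tested, with values from -0.93 to 0.55. It was negative for 17 of the 19 genes in ranks 1 to 19, with a median of -0.24, and positive for 17 of the 20 in ranks 20 to 39, with a median of 0.14. Without HR library 1 these medians were -0.08 and 0.30, and that of all 40 was 0.14.

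Over all 12 libraries ENSRNOG00000028064 had the largest difference between the lines among the 40 genes, but not without LR library 5. It stood at 10.4, 24.7 and 32.4 CPM (lowest, median and highest) in HR dorsal raphe and at 25.4, 42.4 and 76.8 CPM in LR dorsal raphe. The ranges overlapped, and the highest value was that of LR library 5. Its log2 fold change was -0.93 (SE 0.30, unadjusted p = 0.00897, edgeR adjusted p = 0.735), and -0.66 (SE 0.25) without LR library 5. Without that library ENSRNOG00000012229 had the largest, at 0.86 (SE 0.40, edgeR adjusted p = 0.492). Within earlier libraries the log2 fold change of ENSRNOG00000028064 was -0.55 and within later ones -1.47. In the amygdala, whose libraries the correlation did not use, ENSRNOG00000028064 stood at 1.29, 1.75 and 4.18 CPM in HR and 1.22, 4.82 and 5.48 CPM in LR rats. The log2 fold change there was -0.95 (SE 0.37, unadjusted p = 0.0211, edgeR adjusted p = 0.5001). It failed the correction in both regions, and the regions may or may not come from the same rats, which is not given.

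**Figure D4:**
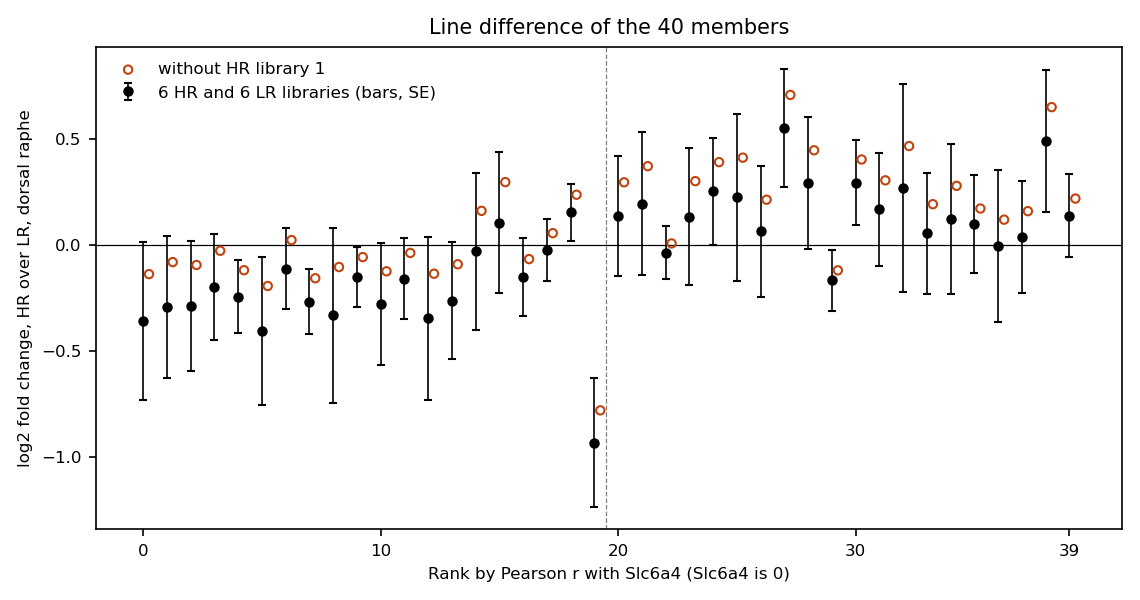
Log2 fold change of HR over LR dorsal raphe for the 40 genes by rank, from all 12 libraries (filled, bars are SE) and without HR library 1 (open), with a dashed line between ranks 19 and 20. Values run from -0.93 to 0.55 over all libraries, and none passed the threshold.

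In the amygdala 16 of the 40 genes passed the low count filter, and 0 of the 16 were called between the lines with edgeR, where 0.0210% of 14265 genes were. An unadjusted p under 0.05 (edgeR) was found for 2 of the 16, against 1189 of the 14265 genes, and DESeq2 also called 0 of the 16. Slc6a4 was among the 24 not tested, with 59 counts over the 12 amygdala libraries, 18 of them in LR library 2. That library was also the highest of the 12 for ENSRNOG00000003880, at 2.08 CPM. This gene averaged 0.942 ± 0.339 CPM in HR and 1.01 ± 0.616 CPM in LR amygdala (SD, n = 6 each). The log2 fold change was -0.08 (SE 0.39, edgeR adjusted p = 0.979), smaller than the spread between libraries.

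Many genes of ranks 20 to 39 were high in the same amygdala libraries. HR library 2, LR library 4 and LR library 6 all lay above the other 9 amygdala libraries for 13 of the 20 genes in ranks 20 to 39. The same held for 0 of the 20 genes made up of Slc6a4 and ranks 1 to 19, several of which had few amygdala counts, for 15 of the 52 other raphe genes and for 0.940% of all 32662 IDs. These 3 libraries were picked after their values were seen, so the counts are a description. ENSRNOG00000037668 stood at 2.47, 2.12 and 2.94 CPM in the 3 libraries and at no more than 0.337 CPM in the other 9. ENSRNOG00000011006 stood at 1.80, 2.05 and 3.16 CPM in the 3 and at no more than 0.174 CPM in the other 9. The summed level of ranks 20 to 39 was 38.9 to 59.3 CPM in the 3 and 11.03 to 19.7 CPM in the other 9, so the ranges were apart. That of ranks 1 to 19 was 26.7 to 48.7 CPM in the 3 and 28.9 to 62.4 CPM in the other 9, so those ranges overlapped. These 3 libraries come from both lines. With each left out singly, 0 of the 16 genes tested were called between the lines with edgeR. Without HR library 2, 7 of the 16 had an unadjusted p under 0.05 (edgeR), as had 1728 of 14369 genes. Without LR library 4 it was 2 of the 16 (1110 of 14334 genes), and without LR library 6 it was 1 (1108 of 14337 genes). A fit without all 3 was not run, and the cause of the pattern was not tested.

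**Figure D5:**
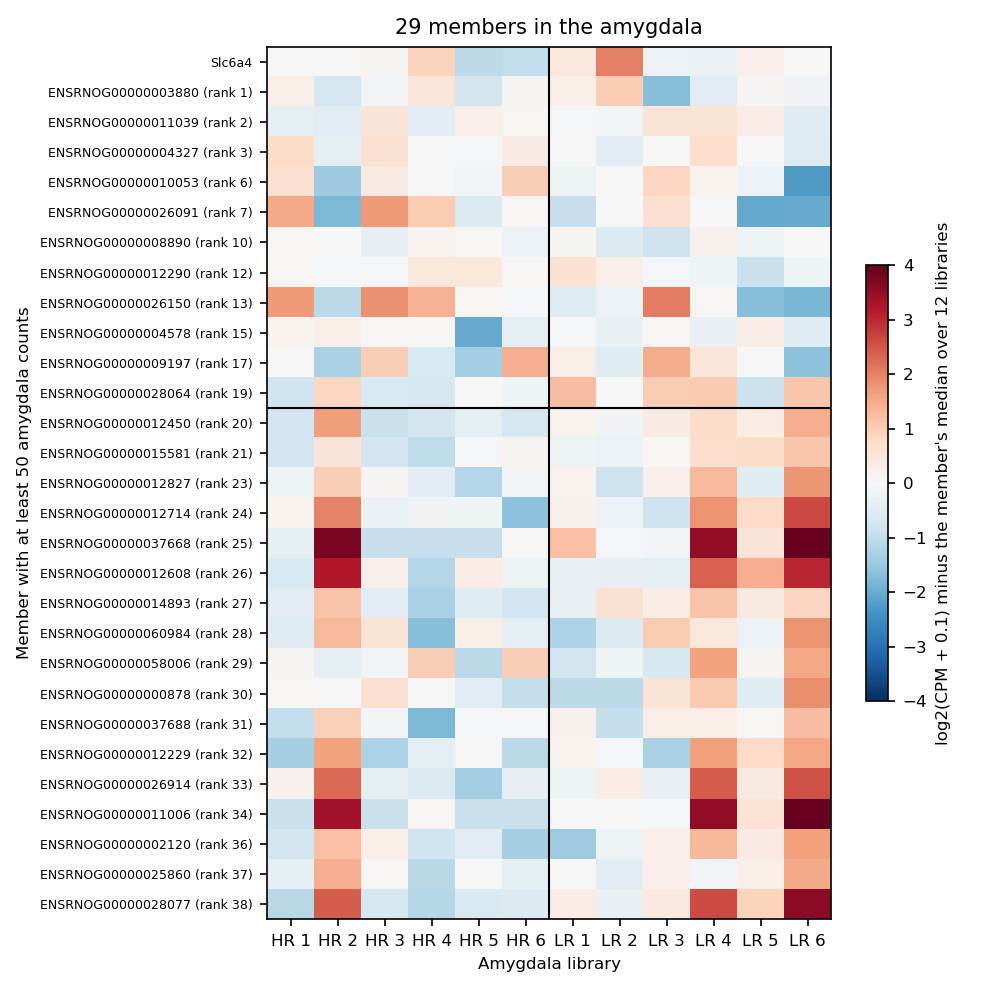
Log2(CPM + 0.1) of the 29 genes with at least 50 amygdala counts, minus each gene's median over 12 amygdala libraries (columns, HR left of LR; rows by rank, the line parting rank 19 from later ranks; values beyond 4 in either direction take the end colour). HR library 2, LR library 4 and LR library 6 lie above the gene's median in 16, 16 and 17 of the 17 rows below the line, and in 3, 8 and 1 of the 12 rows above it.

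Later numbered dorsal raphe libraries were set against earlier ones, with a term for line, because many genes differ between them. Of all 14390 genes 48.1% were called with edgeR, and 24.3% of all genes were higher in later libraries. Of the 40 genes 7 were called (17.5%), a share below that background, and all 7 were higher in later libraries. The rule chose the 40 on shared variation over these same libraries, so their directions are not independent of one another. Without HR library 1, an earlier library, 6 of the 40 were called, against 6479 of all 14490 genes tested. Of the 6, 5 were higher and 1 was lower. The lower one was ENSRNOG00000008890, whose log2 fold change was then -0.59 (SE 0.19, edgeR adjusted p = 0.0248). Slc6a4 was not among the 7, at 378 ± 69.5 CPM in later (n = 5) and 416 ± 190 CPM in earlier libraries (SD, n = 7). Its log2 fold change was 0.05 (SE 0.39, edgeR adjusted p = 0.928). The CPM means go the other way. They are scaled to library totals, while the fit used TMM scaling and a term for line. Without HR library 1 the log2 fold change of Slc6a4 (ENSRNOG00000003476) was -0.24 (SE 0.19).

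Of the 7 calls, 1 lay in ranks 1 to 19 and 6 in ranks 20 to 39. ENSRNOG00000012229 had the highest fold change, at 8.37, 15.8 and 23.6 CPM in later libraries (lowest, median and highest), against 2.92, 6.46 and 10.1 CPM in earlier ones, and its log2 fold change was 1.30 (SE 0.33, edgeR adjusted p = 0.00741). ENSRNOG00000037668 stood at 16.1, 20.3 and 24.8 CPM in later and 4.74, 9.95 and 16.9 CPM in earlier libraries, and its log2 fold change was 0.99 (SE 0.28, edgeR adjusted p = 0.0112). The ranges of both genes overlapped between later and earlier libraries. ENSRNOG00000058006 was also among the 7, and over all libraries its later minus earlier difference was 0.38 (edgeR adjusted p = 0.00782). Its ranges overlapped too, at 112 to 161 CPM in later and 107 to 144 CPM in earlier libraries. Without LR library 5, a later library, 1 of the 40 genes was called, against 4927 of all 14458 genes tested. The gene still called was ENSRNOG00000058006, at 0.33 (edgeR adjusted p = 0.0351). The log2 fold changes were then 0.89 (edgeR adjusted p = 0.0557) for ENSRNOG00000012229 and 0.78 (edgeR adjusted p = 0.0607) for ENSRNOG00000037668. Without HR library 4 the count was 3 of the 40, against 5612 of all 14457 genes tested. The median log2 fold change was 0.15 in ranks 1 to 19 and 0.45 in ranks 20 to 39, against 0.03 over all genes tested. Without HR library 1 these medians were 0.03 and 0.36, against 0.03 over all genes.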

How the data were processed

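Poly-A libraries were made from RNA extracted by Qiagen miRNeasy, per the labels' protocols. Trim Galore, STAR and the rat build rn6 are named in the submitters' processing notes. Their versions, the counting program, the annotation and the strand setting are not given in the sources used here, so near-identical, overlapping and antisense genes could not be told apart. The deposited values are raw counts per gene, 1 table per library, with 0 lines that name no gene.

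CPM was computed from the deposited counts and library totals. Comparisons used edgeR 4.0.16 in R 4.3.3 (filterByExpr, TMM, glmQLFit and glmQLFTest), calling genes with an adjusted p (Benjamini-Hochberg) under 0.05 and taking SE as the log2 fold change over the square root of F. The fits were tested on simulated counts with no library set apart and, for the lines, no difference between earlier and later libraries. The simulation therefore cannot tell how many real differences the fits missed. Positive values are higher in HR or in later libraries, which were set by a break in each group's library numbers. Alternatives were DESeq2 1.42.0, other scalings and filters, fits without 1 library, and other forms of the rule. The line comparisons were also run in earlier or later libraries alone, with a term for later libraries, and with a replicate block. Nothing says that the libraries of a group came from separate rats, so p-values cover only library-to-library spread, part of which may be technical. The closest pair of libraries in a group differed beyond sampling noise (3.46 for chi-square per degree of freedom), so none was treated as a duplicate.

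The genes, lists and tests were chosen with earlier results of these data known. Described singly were the 10 highest correlations, the 5 highest pooled levels, the 5 genes inside and outside the end of the list, the 3 deepest and 3 shallowest drops in the lowest library, and, chosen after their values were seen, genes that led a comparison. The RefSeq table (assembly GRCr8) matched 0 of 32662 IDs, so marker, pathway and peptide lists and promoter motifs were not used.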

Additional observations from a re-analysis of the deposited data

Results flagged for a closer look

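In 7 of 37 groups of 6 values, 1 library lay far from the rest. Chance gives about 1 group in 20, but only for groups not chosen by their values. Some of these genes and the split into ranks were chosen after their values were seen. The rule also chose the genes on values that include HR dorsal raphe library 1. The count of 7 is therefore a description. Genes and sums overlap, so the 7 are not independent. Slc6a4 stood at 1.49 CPM in LR amygdala library 2, and the other 5 LR amygdala libraries reached 0.421 CPM. In HR amygdala library 2, ENSRNOG00000028064 stood at 4.18 CPM, where the other HR amygdala libraries reached 2.26 CPM. In that library ENSRNOG00000012229 stood at 1.80 CPM (the others reached 0.542 CPM), ENSRNOG00000037668 at 2.47 CPM (the others reached 0.0968 CPM) and the sum of ranks 20 to 39 at 38.9 CPM (the others reached 17.2 CPM). The same sum stood at 226 CPM in HR dorsal raphe library 1, where the lowest of the other 5 was 396 CPM. Slc6a4 and the summed level of the 40 genes were examined in HR dorsal raphe too. HR library 1 was the lowest for each, but neither value was among the 7. ENSRNOG00000012229 stood at 23.6 CPM in LR dorsal raphe library 5, and the rest of that group reached 9.33 CPM.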

How the results depend on the processing

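Between the lines, 0 of the 40 genes were called in either region under the 20 alternatives run for each. In earlier amygdala libraries alone, 1 of the 17 tested had an unadjusted p under 0.05 (edgeR), as had 705 of 14364 genes. In later amygdala libraries alone, 8 of the 16 tested had one, as had 1557 of 14284 genes. The smallest edgeR adjusted p among those 16 was 0.0537, near the threshold. The number of all genes called in the dorsal raphe (9) was 39 with DESeq2, 5 with the replicate block, 16 in earlier and 0 in later libraries alone (edgeR, 237 at an unadjusted p under 0.05), and 3 to 12 when 1 library was left out. In the amygdala (3) it was 1 with RLE factors, 1 with library totals only, 1 with no filter beyond 1 count, 82 with DESeq2, 0 in earlier (edgeR, 705 at an unadjusted p under 0.05) and 61 in later libraries alone, and 1 to 27 when 1 library was left out. In later dorsal raphe libraries alone the line difference turned to 0.17 for Slc6a4 and 0.11 for ENSRNOG00000003880. In the amygdala the difference of ENSRNOG00000003880 ranged from -0.28 to 0.26 when 1 library was left out, turning to 0.02 without HR library 2, 0.03 without HR library 5 and 0.26 without LR library 2. The line difference of Slc6a4 in the dorsal raphe ranged from -0.46 to -0.14 when 1 library was left out and was -0.48 with the replicate block. Libraries of equal number in HR and LR deviated together with r of -0.604 to 0.726 in the dorsal raphe and -0.387 to 0.685 in the amygdala, so the numbers were not taken to pair them. The later minus earlier difference of Slc6a4 turned to -0.036 with library totals only and -0.071 with no line term, and ranged from -0.24 to 0.23 when 1 library was left out (-0.24 without HR library 1, -0.07 without HR library 4, -0.06 without HR library 5, -0.01 without LR library 2). The count of the 40 called there ranged from 1 to 10 when 1 library was left out, and that of all genes from 4927 to 7731. Of the 39 ranked genes, 24 were kept with Spearman's rho, 20 with 4 times and 20 with 16 times the amygdala level, 25 with 10 CPM and 22 to 39 when 1 library was left out (22 without HR library 1). Every gene lost with 16 times or with 10 CPM lay under that cut itself, as 14 of the 39 did for 10 CPM. Adding the 0.1 CPM after multiplying by 8, tried after the data were seen, kept 39. The causes of the other changes were not tested. Low amygdala counts left 24 of the 40 untested there.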

Other observations

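Of the 52 raphe genes left outside the list, 2 had r with Slc6a4 of at least 0.5 once HR dorsal raphe library 1 was set aside. They were ENSRNOG00000013588 at 0.557, against 0.0550 over all 12 libraries, and ENSRNOG00000059793 at 0.533, against -0.0673. ENSRNOG00000005911 ran opposite to Slc6a4, with r = -0.670 over 12 libraries and -0.878 without HR library 1. It stood at 56.9 CPM in HR library 1, while the other 11 ranged from 0.0873 to 44.2 CPM with a median of 0.975 CPM. Its highest amygdala value was 0.327 CPM. These 3 genes were chosen after their values were seen.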
